A study of Mus musculus with 34 samples.

Results

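Of 19688 H3K4me3 regions called in limb, 3289 (16.7%) overlapped an H3K4me3 region of forebrain and also an H3K27me3 region of each tissue, by at least 1 bp each. They are called bivalent here. The forebrain H3K4me3 and H3K27me3 regions had to meet the limb region but not each other, and their overlap was not checked. Membership was read from the 4 called lists, so counts of members, their H3K4me3 and H3K27me3 widths and the genes found at them describe the selection and were not tested. They made up 21.3% of the 15472 limb H3K4me3 regions that forebrain shared. The main comparison was with the 9379 shared regions that carried no H3K27me3 region of either tissue, called Polycomb-free. Another 2339 shared regions met H3K27me3 of limb only and 465 met that of forebrain only. The last 4216 limb H3K4me3 regions had no forebrain counterpart, and these may or may not carry H3K27me3.

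The study mapped chromatin proteins by sequencing immunoprecipitated DNA (ChIP-seq). Histone marks came from limb and forebrain of CD1 mouse embryos at embryonic day 11.5: H3K4me3, H3K27me3 and H3K4me1 in both tissues, and H3K27ac in limb. The other lists came from FLAG-tagged coactivators in mice or embryonic stem cells (ESC) of mixed 129 and C57BL/6 background: SMARCA4 in limb, heart, face, ESC, and the nervous system (forebrain, midbrain, hindbrain and neural tube); SMARCC2 in face and hindbrain; EP300 in face and ESC; NCOA1 and NCOA2 in hindbrain. Tissue was pooled from embryos of both sexes, about 150 or 300 of them per the labels. Each of the 30 lists used (14 FLAG, 6 controls of FLAG samples, 7 histone marks, 3 histone inputs) belongs to 1 library, so there was no replicate check and no p-value was computed. Labels conflict in places: a SMARCA4 knock-in genotype is entered for every tagged protein, and one SMARCA4 sample titled hindbrain carries forebrain as its tissue (it is treated as hindbrain here). The protocol text of the histone samples speaks of heart and hindbrain, although their titles and tissue entries, which were followed, give limb and forebrain; this touches all 4 lists that define the set. Every interval below is an exact 95% binomial (Clopper-Pearson) interval for a share, or a Newcombe interval for a difference of shares, and covers counting error only, since regions of one library are not replicates.

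H3K4me3 is laid down at gene starts by the COMPASS and MLL methyltransferases and is found at active and poised promoters. H3K27me3 is written by Polycomb repressive complex PRC2, whose catalytic subunit is EZH2 or EZH1, and is bound by the CBX proteins of PRC1. Promoters that carry both marks were first described in embryonic stem cells, chiefly at developmental regulators with CpG-rich sequence that are silent or barely transcribed. H3K27ac, written by EP300 and its relative CREBBP, sits on the same lysine as H3K27me3, so 1 histone tail cannot carry both. In whole tissue, both marks on the same chromatin and each mark in different cells cannot be told apart.

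Promoters of 6 bivalent genes and of 2 Polycomb-free genes are shown because the results return to these genes. Hoxa13, Twist1, Tbx4 and Prrx1 are regulators of the limb, Lhx2 and Pax6 are regulators of the forebrain, and Ezh2 and Smarca4 encode the PRC2 enzyme and the tagged remodeller. Each sequence is RefSeq's, on GRCm38.p6, and runs 5′ to 3′ along the gene from 250 bases before its start to 50 after it, with each CpG in capitals. The deposited peaks are on mm9, so these coordinates and those of the peaks below are not on one scale, and it was not checked that these starts are the ones inside the regions. They lie at chr6:52260831-52261130 (Hoxa13, minus strand), chr12:33957421-33957720 (Twist1, plus), chr11:85896515-85896814 (Tbx4, plus), chr1:163313601-163313900 (Prrx1, minus), chr2:38339031-38339330 (Lhx2, plus), chr2:105668646-105668945 (Pax6, plus), chr6:47594981-47595280 (Ezh2, minus) and chr9:21615919-21616218 (Smarca4, plus).
Hoxa13: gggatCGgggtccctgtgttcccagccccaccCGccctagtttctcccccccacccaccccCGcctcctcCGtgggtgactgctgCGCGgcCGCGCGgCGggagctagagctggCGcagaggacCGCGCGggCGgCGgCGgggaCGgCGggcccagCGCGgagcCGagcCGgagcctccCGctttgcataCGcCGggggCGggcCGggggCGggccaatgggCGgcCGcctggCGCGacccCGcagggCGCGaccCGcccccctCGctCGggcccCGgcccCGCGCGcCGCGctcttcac
Twist1: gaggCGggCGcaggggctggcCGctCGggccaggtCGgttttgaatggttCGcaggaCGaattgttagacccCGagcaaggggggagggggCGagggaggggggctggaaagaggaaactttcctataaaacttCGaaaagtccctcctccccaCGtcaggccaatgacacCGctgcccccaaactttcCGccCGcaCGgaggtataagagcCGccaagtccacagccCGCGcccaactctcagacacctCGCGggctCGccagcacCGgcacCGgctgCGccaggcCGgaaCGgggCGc
Tbx4: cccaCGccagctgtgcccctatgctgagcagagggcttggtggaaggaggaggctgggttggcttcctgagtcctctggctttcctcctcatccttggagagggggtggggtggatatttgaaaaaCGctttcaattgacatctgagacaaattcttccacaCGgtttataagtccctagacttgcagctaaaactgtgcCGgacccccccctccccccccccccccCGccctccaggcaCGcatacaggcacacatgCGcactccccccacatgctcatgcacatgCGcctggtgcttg
Prrx1: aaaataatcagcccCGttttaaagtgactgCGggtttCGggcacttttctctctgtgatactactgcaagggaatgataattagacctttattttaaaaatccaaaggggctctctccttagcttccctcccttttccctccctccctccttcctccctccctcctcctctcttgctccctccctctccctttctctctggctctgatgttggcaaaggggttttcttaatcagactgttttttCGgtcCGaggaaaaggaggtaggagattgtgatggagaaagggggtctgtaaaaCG
Lhx2: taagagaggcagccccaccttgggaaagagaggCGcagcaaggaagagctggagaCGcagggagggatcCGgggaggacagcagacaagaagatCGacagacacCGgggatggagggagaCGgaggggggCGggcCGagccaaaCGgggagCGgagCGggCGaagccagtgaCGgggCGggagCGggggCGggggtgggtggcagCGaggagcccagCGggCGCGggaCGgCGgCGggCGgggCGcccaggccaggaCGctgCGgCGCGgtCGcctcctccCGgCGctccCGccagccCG
Pax6: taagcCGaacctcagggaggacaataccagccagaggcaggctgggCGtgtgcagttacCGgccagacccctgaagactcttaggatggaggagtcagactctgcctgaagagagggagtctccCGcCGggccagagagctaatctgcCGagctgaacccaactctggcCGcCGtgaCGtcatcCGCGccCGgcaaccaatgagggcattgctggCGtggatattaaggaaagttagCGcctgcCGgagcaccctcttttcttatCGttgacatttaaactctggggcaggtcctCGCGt
Ezh2: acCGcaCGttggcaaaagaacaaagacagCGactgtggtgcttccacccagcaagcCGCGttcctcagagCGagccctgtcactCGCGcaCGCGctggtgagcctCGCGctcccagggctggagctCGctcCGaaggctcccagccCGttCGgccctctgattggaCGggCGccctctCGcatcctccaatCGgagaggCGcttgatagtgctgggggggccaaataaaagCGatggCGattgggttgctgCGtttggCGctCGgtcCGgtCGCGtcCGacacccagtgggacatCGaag
Smarca4: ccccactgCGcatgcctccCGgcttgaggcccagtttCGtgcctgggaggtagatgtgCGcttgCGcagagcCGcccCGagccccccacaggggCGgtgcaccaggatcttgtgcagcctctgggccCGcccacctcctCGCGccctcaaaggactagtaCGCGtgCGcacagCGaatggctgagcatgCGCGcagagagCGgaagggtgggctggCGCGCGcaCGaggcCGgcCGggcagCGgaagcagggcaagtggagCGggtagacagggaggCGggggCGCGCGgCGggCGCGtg

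These windows differed widely in CpG content. Hoxa13 had 45 CpG and 81.0% G or C, and Lhx2 had 34 CpG. Twist1 had 27 and Pax6 had 18. Tbx4, with 8 CpG, and Prrx1, with 6, were close to the median of 7 (quartiles 3 and 21) over all 27025 promoters of the RefSeq table. The Polycomb-free Ezh2 and Smarca4 promoters had 31 and 33. CpG content did not separate the 6 bivalent from the 2 Polycomb-free promoters shown. On either strand, TATAAA occurred in Twist1 and Tbx4; CCAAT in Hoxa13, Twist1, Pax6 and Ezh2; and GGGCGG in Hoxa13, Twist1, Tbx4, Lhx2 and Smarca4. Over all 27025 promoters the same letters occurred in 14.2%, 37.9% and 35.9%. A comparison of composition over the whole classes was void, because 75.1% of bivalent genes (1691 of 2251) matched a promoter, under the minimum of 80%; the share was 82.0% (5380 of 6558) for Polycomb-free genes.

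Bivalent regions had a somewhat smaller median width than Polycomb-free regions but were more often very wide, though less often than regions with forebrain H3K27me3 only. Their median limb width was 1891 bp (quartiles 1426 and 2594), against 2055 bp for Polycomb-free regions, 1631 and 2250 bp for regions with H3K27me3 of limb only and of forebrain only, and 919 bp for regions without a forebrain counterpart. The narrowest spanned 483 bp and the widest 54882 bp. Widths of 5 kb or more were found in 149 bivalent regions (4.53%) in 2.51% of Polycomb-free regions, and in 2.18% and 9.46% of regions with H3K27me3 of limb only and of forebrain only. Bivalent regions stood lower in the limb H3K4me3 list, with a median position of 10501 in the authors' ranking against 5446, where 1 is the first. They made up between 13.8% and 19.8% of limb H3K4me3 regions on each numbered chromosome and on X.

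H3K27me3 covered these regions far more fully in limb than in forebrain. Limb H3K27me3 covered a median of 100% of the limb H3K4me3 width, and 2344 regions (71.3%) lay wholly inside it. Forebrain H3K27me3 covered a median of 30.6% (quartiles 19.5% and 47.1%), and 450 regions (13.7%) lay wholly inside it. Cover was larger in limb at 2755 regions, larger in forebrain at 107 and equal at 427. The H3K27me3 regions themselves had a median width of 4689 bp in limb and 1532 bp in forebrain at bivalent regions, and of 1609 and 828 bp elsewhere. The limb list is also longer, with 13137 regions over 45.8 Mb against 11073 over 19.1 Mb in forebrain, so tissue and the depth or calling of its library cannot be told apart. At least 50% of the width was covered in both tissues at 728 regions (22.1%).

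**Figure D1:**
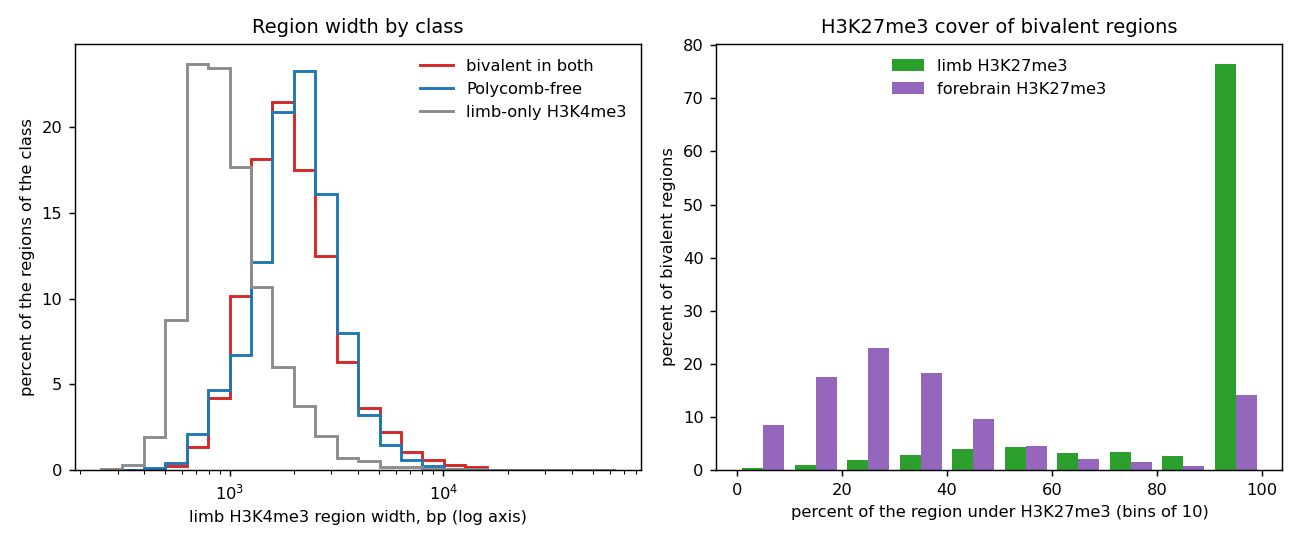
Left, the distribution of limb H3K4me3 width (bp, log axis) in bivalent regions, Polycomb-free regions and regions without forebrain H3K4me3 (percent of each class); right, bivalent regions by the percent of their width that H3K27me3 covered in limb and in forebrain. Bivalent and Polycomb-free widths overlap broadly around medians of 1891 and 2055 bp, the third class centres on 919 bp, and median cover is 100% in limb and 30.6% in forebrain.

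The rule calls on overlaps as small as 1 bp, and some regions stood at its edge. The forebrain H3K27me3 region reached 1 bp into the region of Hecw1, 1 bp into a region whose nearest gene start is Gadd45b, and a few bases into that of Rundc3b. An overlap under 100 bp in either tissue was found at 133 regions (4.04%). Just outside the rule, 76 regions with limb H3K27me3 only had a forebrain H3K27me3 region within 100 bp, and 305 (13.04%) had one within 1 kb. At regions with forebrain H3K27me3 only, the closest limb H3K27me3 lay 17 bp away.

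A gene start lay within 1 kb of 2447 bivalent regions (74.4%, 72.9 to 75.9), of 73.7% of Polycomb-free regions and of 58.6% of all limb H3K4me3 regions. Starts were worked out from the authors' distances between peaks and genes, so a gene has one only where at least 2 FLAG or control peaks were assigned to it. Genes without such a start were not analysed here. Transcription factor genes of 13 developmental families started at 70 bivalent regions (2.13%, 1.66 to 2.68), at 10 Polycomb-free regions (0.107%), at 0 of the 465 regions with forebrain H3K27me3 only, and at 131 of all limb H3K4me3 regions (0.665%). That 0 allows a share of up to 0.790% by the exact interval. Counted by gene, 2251 of 10643 genes with a limb H3K4me3 region at their start were bivalent (21.2%), and 68 of 127 transcription factor genes were (53.5%). A gene with several such regions was counted as bivalent if any of them was, which can only raise these shares. The other transcription factor genes were mostly without forebrain H3K4me3 (33 genes) or with H3K27me3 in limb only (16 genes).

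All 9 LIM homeobox genes and all 5 NKX genes with a limb region were bivalent. So were 8 of 12 T-box genes, 14 of 23 genes of the proneural and related bHLH family, 8 of 21 forkhead genes, 4 of 14 SOX genes, 3 of 4 GATA genes, 3 of 4 Iroquois genes, 3 of 5 DLX genes, 2 of 5 PAX genes, 2 of 4 sine oculis homeobox genes and 2 of 6 POU genes. HOX genes, which set position along the body and limb axes, divided differently: 5 of 15 were bivalent and the other 10 had H3K4me3 in limb but not in forebrain. Beside 21.2% of all genes, the exact intervals of the LIM, NKX, T-box and bHLH shares lay above that value. The intervals of the forkhead, SOX, GATA, Iroquois, DLX, PAX, sine oculis, POU and HOX shares included it. Here and for the gene lists below, intervals of bivalent shares count genes as independent, although some genes share a region. The lists were chosen with earlier results known, so these intervals describe the selection and test nothing. The widest bivalent region, at chr6:52164454-52219335 on mm9, spanned 54882 bp of the HoxA cluster from Hoxa10 to Hoxa13. Its forebrain H3K4me3 summed to 1119 bp. The second HOX region by width held Hoxc9, with 9279 bp in limb and 1018 bp in forebrain. It lay in none of the 14 FLAG lists, although 3 control lists met it. T-box regions were wide as well. Tbx2, a repressor of the limb and heart, had 17007 bp, hindlimb Tbx4 had 13630 bp and Tbx15 had 11306 bp, all wholly under limb H3K27me3. Among LIM genes, Lmx1b, which sets dorsal limb identity, had 14387 bp and Lhx9 had 13965 bp. Ebf3, of the EBF transcription factor family, had 15086 bp. Sox6, a regulator of cartilage, had 11387 bp and lay in 7 of the 8 SMARCA4 lists.

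Genes of signalling pathways were bivalent at 13 of 17 WNT ligands, 12 of 16 FGF ligands, 9 of 10 BMP and GDF ligands, 5 of 9 hedgehog pathway genes and 8 of 21 ephrins and Eph receptors. Over all genes 21.2% were bivalent. The exact interval of the ephrin share (18.1% to 61.6%) included that value, and that of the hedgehog share (21.2% to 86.3%) began at it. The WNT, FGF and BMP intervals lay above it. Wnt5a, which directs limb outgrowth, had a region of 10635 bp, of which H3K27me3 covered 10.8% in limb and 37.7% in forebrain. Bmp4 showed the same order, with 6355 bp and cover of 43.8% in limb and 75.4% in forebrain. Wnt11, with 6904 bp, and Gdf6, with 6705 bp, were wholly covered in limb and 92.9% and 82.2% covered in forebrain. Shh, the ligand of the limb's polarizing region and of the ventral forebrain, had 3566 bp in limb. It was wholly covered in limb, 60.3% covered in forebrain, and of the FLAG lists only SMARCA4 of neural tube met it.

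Potassium channel, glutamate and GABA receptor, and collagen genes were bivalent in part. Bivalent regions were found at 39 of 60 potassium channel genes and at 19 of 28 glutamate and GABA receptor genes. Kcna1, a voltage-gated channel of axons, had 4000 bp, and the NMDA receptor gene Grin2a had 4152 bp. Collagen genes were bivalent at 16 of 28, and Col4a1 and Col4a2 share 1 region because they start back to back. Col2a1, the main collagen of cartilage, had 5683 bp, was wholly under limb H3K27me3 and also carried limb H3K27ac. Among inhibitors of cyclin-dependent kinases, Cdkn1c, Cdkn2c and Cdkn2a were bivalent and 3 others with a limb region were not. The exact interval of that share (11.8% to 88.2%) included the 21.2% of all genes. The intervals of the channel, receptor and collagen shares lay above it.

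Of 24 genes listed for the Polycomb complexes and their partners, 7 were bivalent (29.2%, 12.6 to 51.1), a share near the 21.2% of all genes. PRC2 genes such as Ezh2, Ezh1, Eed and Jarid2 were among the 17 Polycomb-free genes. The 7 bivalent ones included the PRC1 readers Cbx2, Cbx7 and Cbx8, the PRC2 partner Phf19, the PRC1 gene Pcgf5, and Kdm6b, which was listed with them although it encodes an H3K27 demethylase. Cbx2 and Cbx8, both on chromosome 11, had regions of 5008 and 9936 bp. Kdm6b had one of the 10 widest bivalent regions with a gene start (15095 bp, chr11:69220399-69235493 on mm9), but H3K27me3 covered 10.6% of it in limb and 0.696% in forebrain. Of the SWI/SNF genes, 2 of 22 were bivalent, Smarca2 and Dpf3, and Smarca4 and Smarcc2 were Polycomb-free. Requiring H3K27me3 over at least 50% of the width in each tissue ended these calls, with 0 Polycomb and 0 SWI/SNF genes left, and left 6 potassium channel, 7 limb identity and 5 forebrain identity genes. Housekeeping lists held none: 0 of 54 ribosomal protein genes, which allows a share of up to 6.60% by the exact interval, and 0 of 27 proteasome genes, up to 12.8%.

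**Figure D2:**
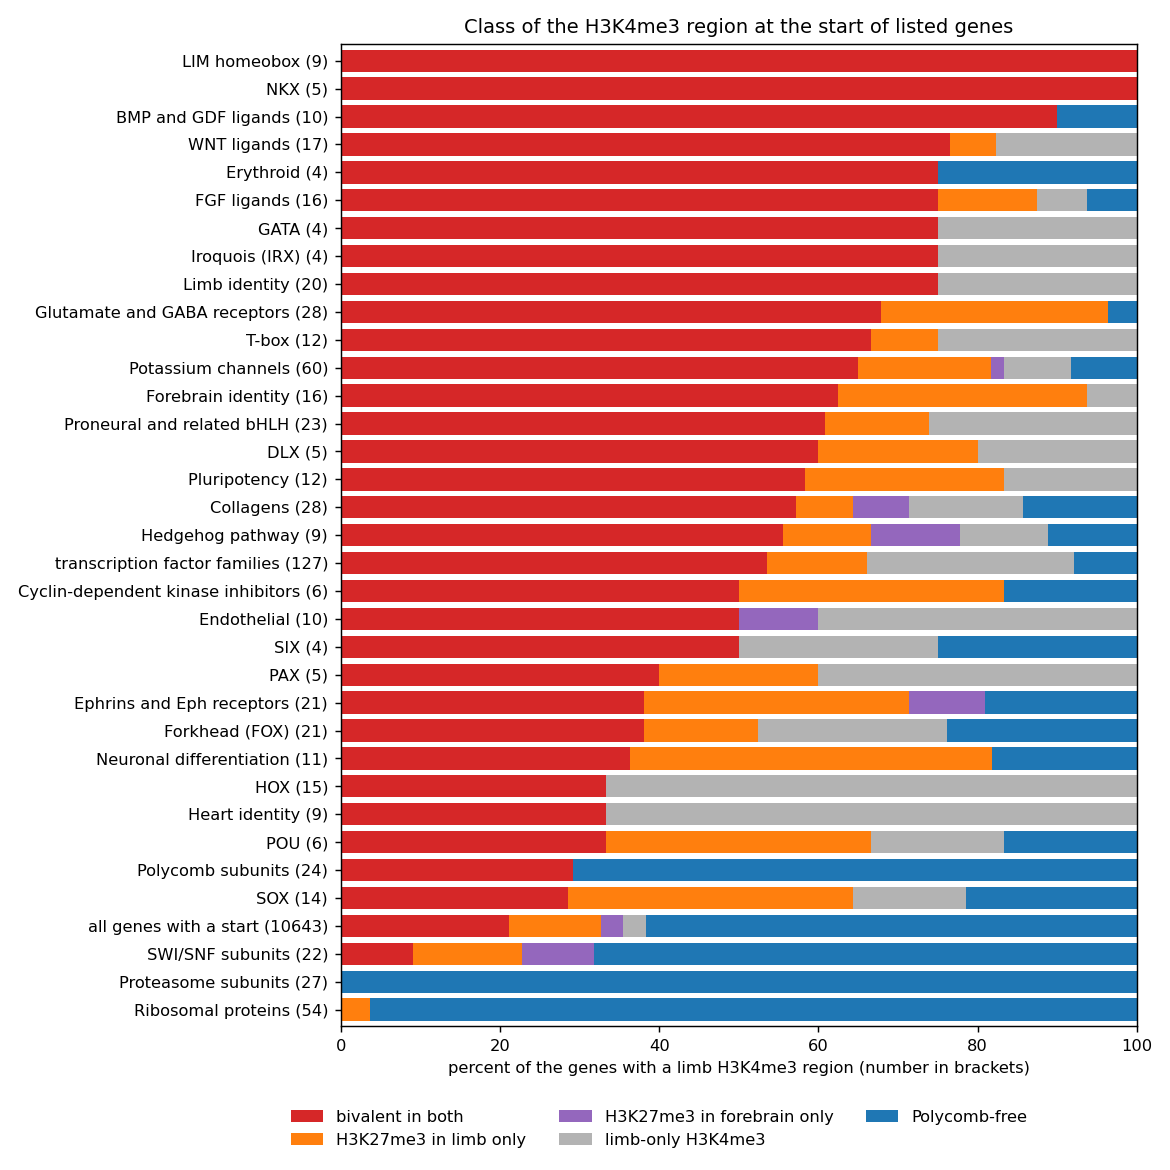
Genes with a limb H3K4me3 region at their start, divided by the class of that region (stacked bars, percent of the genes of each list), with the number of such genes in brackets. Bivalent genes (red) of the LIM homeobox and NKX lists reach 100% and those of the ribosomal protein and proteasome lists 0%, against 21.2% over all genes.

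Most listed regulators of limb and of forebrain identity with a limb H3K4me3 region at their start were bivalent by this rule. Yet the 2 lists differed in limb H3K27ac, which the rule did not use. Of 20 limb identity genes with a limb region, 15 were bivalent, and Tbx5, Hand2, Pitx1, Tfap2b and En1 had H3K4me3 in limb only. Of 24 forebrain identity genes with a placed start, 16 had a limb region. Among these 16, 10 were bivalent, and Emx2, Dlx1, Sox2, Sox1 and Tbr1 had H3K27me3 in limb only. H3K27ac of limb overlapped 13 of the 15 limb identity regions (86.7%, 59.5 to 98.3), the exceptions being Shh and Fgf8. It overlapped 1 of the 10 forebrain identity regions (10%, 0.253 to 44.5), that of Dlx2. The 2 intervals did not overlap, and limb H3K27ac was present at 58.2% of all limb H3K4me3 regions. Limb H3K4me3 width differed between these lists too. Its median was 6486 bp for the 15 limb identity regions, while the 10 forebrain identity regions had a median of 2586.5 bp. Among all bivalent regions, limb H3K27ac was found at 81.6% of those of 4 kb or more and at 38.9% of those of 2 to 4 kb. The part that width plays in the contrast between the lists was not tested.

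H3K4me3 width and H3K27me3 cover come from the lists that chose the regions and are given as a description. At 13 of 15 limb identity regions the limb region was wider than the forebrain H3K4me3 over it, and at 1 of 10 forebrain identity regions, that of Rax. Over all 3289 bivalent regions, 1339 were wider in limb and 1946 in forebrain. Twist1 had 8735 bp in limb and 975 bp in forebrain. For Tbx4 the widths were 13630 and 1155 bp. In the other direction, Pax6, whose product patterns forebrain and eye, had 1135 bp in limb and 23468 bp in forebrain. Otx1 had 2568 and 16503 bp, and Lhx2 had 1435 and 5932 bp. Prrx1 and Dlx5 differed little, with 8403 and 6979 bp and with 4808 and 4996 bp. Hoxa13, Twist1, Prrx1 and Fgf10 had less H3K27me3 cover in limb than in forebrain, for example 35.6% and 78.7% at Twist1, and 10 limb identity regions had more in limb. Among forebrain identity regions 7 had more cover in limb, 0 had less, and 3 were wholly covered in both. Otx1 was the most unequal, at 100% in limb and 1.67% in forebrain. SMARCA4 of limb met 8 of 15 limb identity and 2 of 10 forebrain identity regions. SMARCA4 of forebrain met 2 of 15 and 4 of 10, and the intervals of both pairs overlap.

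**Figure D3:**
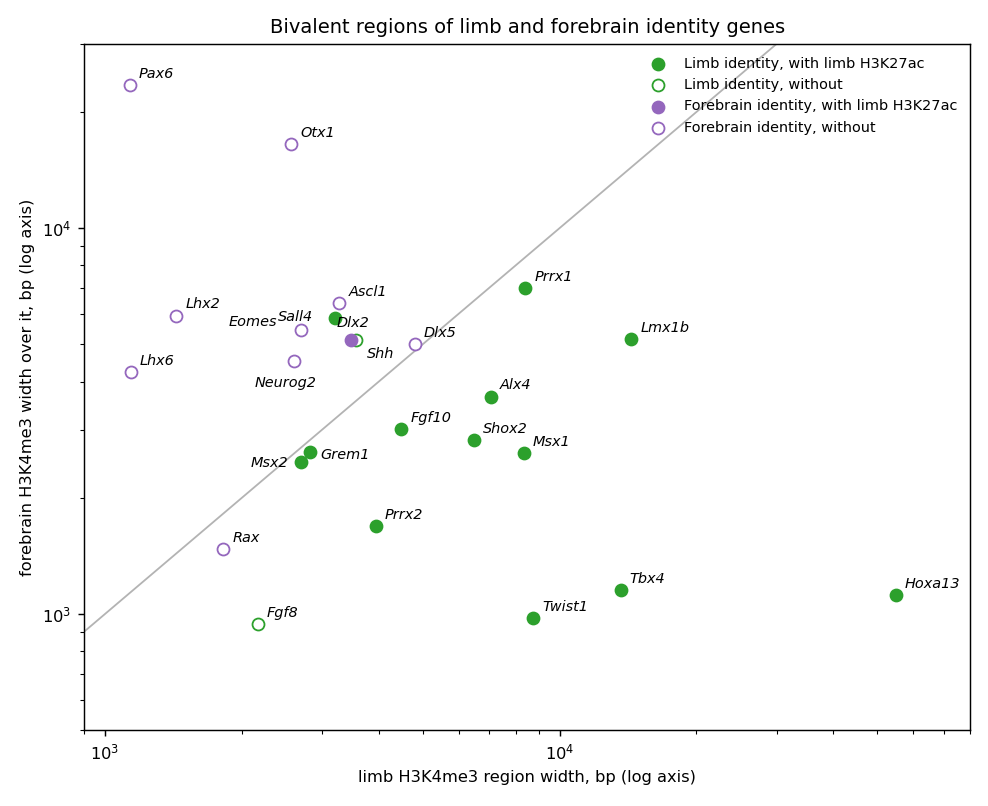
Limb H3K4me3 region width against the summed width of forebrain H3K4me3 over it (bp, both axes logarithmic) for 15 limb identity and 10 forebrain identity genes with a bivalent region; filled points overlap limb H3K27ac and the grey line marks equal width. Twist1, Tbx4 and Hoxa13 lie far below the line and Pax6 and Otx1 far above it.

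Marker genes of endothelial, erythroid, heart, neuronal and pluripotent cells were bivalent in part. These were 5 of 10 endothelial genes (Fli1, Erg, Kdr, Sox7 and Flt1), 3 of 4 erythroid genes (Epor, Tal1 and Nfe2), 3 of 9 heart genes (Mef2c, Ryr2 and Tbx20), 4 of 11 neuronal genes (Gad2, Gad1, Syt1 and Stmn2) and 7 of 12 pluripotency genes. Over all genes 21.2% were bivalent, and the exact intervals of the endothelial (18.7% to 81.3%), erythroid (19.4% to 99.4%), heart (7.49% to 70.1%) and neuronal (10.9% to 69.2%) shares include that value. The interval of the pluripotency share (27.7% to 84.8%) lay above it. The pluripotency genes were Klf4, Sall4, Klf2, Klf5, Tfcp2l1, Utf1 and Nodal, several of which act in later tissues too. Fli1 stood out by width, with 12058 bp in limb and 3291 bp in forebrain. The part that cell composition plays in these marks was not tested.

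The largest difference in a list that the rule did not use was in acetylation. Limb H3K27ac overlapped 884 bivalent regions (26.9%, 25.4 to 28.4) and 83.1% of Polycomb-free regions. The difference was -56.3 percentage points (-57.9 to -54.5). Regions with limb H3K27me3 only were at 36.0%, and those with forebrain H3K27me3 only were at 75.5%. H3K4me1, a mark of enhancers and of the flanks of promoters, went the other way. In limb it met 97.1% of bivalent and 81.5% of Polycomb-free regions (87.3% of all limb regions), and in forebrain 91.1% and 74.4% (74.4% of all). The 2 limb inputs each met 0.517% of bivalent regions (0.447% and 0.498% of all limb regions), and the forebrain input met 0.0304% (0.0508% of all).

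FLAG lists did not behave as one group. SMARCA4 was the ATPase mapped in most tissues, and its share was higher at bivalent than at Polycomb-free regions in 5 of 8 lists. In limb, SMARCA4 met 35.9% of bivalent regions (34.3 to 37.6) and 26.1% of Polycomb-free regions, a difference of 9.77 points (7.92 to 11.6) beside 23.8% of all limb regions. In forebrain it met 41.5% and 32.9%, a difference of 8.62 points (6.69 to 10.6) beside 30.8%. In neural tube the shares were 73.8% and 55.6% (18.2 points, 16.3 to 20.0, beside 49.9%). Face was near saturation, at 93.3% and 89.7% (3.53 points, beside 83.7%), and hindbrain stood at 22.8% and 21.0% (1.80 points, beside 17.8%). The 3 other lists had the lower share at bivalent regions: heart 19.8% and 28.7% (-8.95 points, beside 23.5%), ESC 5.44% and 9.64% (-4.20 points, beside 7.34%) and midbrain 2.89% and 3.96% (-1.07 points, beside 3.90%).

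The 5 higher SMARCA4 differences changed sign when peaks shared with a control or input were left out. Peaks of the limb, forebrain and neural tube lists are wide (medians 2300, 3100 and 2250 bp, against 353 bp in heart), and 100% of them, unlike those of any other list, have boundaries at multiples of 50 bp. Whether another caller made them is not given in the sources used here. Only 13.3%, 21.3% and 32.2% of these peaks, in the same order, met no control or input peak. With the shared peaks left out, the differences became -0.672 points in limb, -1.52 in forebrain, -0.956 in neural tube, -4.68 in face and -1.50 in hindbrain. At least 1 control met 89.5% of bivalent and 80.3% of Polycomb-free regions, and the peaks left out were not counted by class. The controls used came from face, midbrain and hindbrain, and those of SMARCA4 in limb, forebrain and neural tube were not analysed. Why the sign changed was not tested. At 728 regions with at least 50% of the width under H3K27me3 in both tissues, the limb and forebrain differences also ended. They were -0.583 points (-3.75 to 2.82) and 0.0531 points (-3.40 to 3.67). There the neural tube difference remained at 6.64 points (2.93 to 10.2), with -1.40 in face and -5.38 in hindbrain. With each list held to its first 1414 peaks, the limb and forebrain differences were 1.90 and -1.79 points. Neural tube was at 0.566 (-0.495 to 1.69), face at 0.00808 and hindbrain at 0.129. Among regions in the middle tercile of the limb H3K4me3 ranking, the limb and forebrain differences were 16.2 and 13.995 points.

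SMARCC2, a scaffold subunit of the same remodelling complex, differed more in face than any other of the 14 FLAG lists. It met 1895 bivalent regions (57.6%, 55.9 to 59.3) and 22.8% of Polycomb-free regions, 34.8 points apart (32.9 to 36.7) and 2.53 times as often, beside 32.8% of all limb regions. Regions with limb H3K27me3 only were between, at 43.1%. The authors' tag count of the SMARCC2 face peaks had a median of 104 at bivalent and 78 at Polycomb-free regions. Its own control, a list of 1078 peaks, met 0.152% and 0.256% (0.223% of all), and leaving out peaks it shared kept the difference at 34.8 points. Leaving out peaks shared with any control or input kept 50.3% of the list and brought the difference to 0.413 points (-0.488 to 1.39). At the 1414 first-ranked peaks of the list it was 11.6 points. SMARCC2 of hindbrain, a short list, met 0.669% and 0.533% (0.472% of all), a difference within counting error (-0.147 to 0.501 points).

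The acetyltransferase EP300 and the nuclear receptor coactivators had lower shares at bivalent regions. EP300 of face met 132 bivalent regions (4.01%, 3.37 to 4.74) and 26.7% of Polycomb-free regions, a difference of -22.7 points (-23.8 to -21.5) beside 14.7% of all. EP300 of ESC met 35.7% and 38.3%, -2.56 points apart, beside 29.0%, and the sign turned in the middle tercile of the limb H3K4me3 ranking (7.65 points) and without control or input peaks (0.193 points). NCOA2 of hindbrain met 10.5% and 26.3% (-15.8 points, -17.2 to -14.4, beside 16.4%), and NCOA1 of hindbrain met 0.912% and 7.16% (-6.25 points, beside 3.91%). Without peaks that overlapped their own control, the EP300 face difference was -3.37 points and the NCOA2 difference -10.5 points. Without any control or input peak they were -1.21 and -0.147 points. The authors' false discovery rate was 50% or more for 52.3% of EP300 face peaks and for all SMARCA4 midbrain peaks.

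Control lists met bivalent regions often. The EP300 face control met 77.0% of bivalent and 70.8% of Polycomb-free regions (6.23 points, beside 59.5% of all), and the SMARCA4 midbrain control met 81.6% and 69.2% (12.4 points, beside 59.0%). The NCOA2 hindbrain control met 31.0% and 26.8% (4.17 points, beside 22.0%). The NCOA1 control met 2.52% and 2.96% (beside 2.30%), and the SMARCC2 hindbrain control met 3.28% and 2.90% (beside 2.20%). At least 1 control met 89.5% of bivalent and 80.3% of Polycomb-free regions. The share was 77.3% with limb H3K27me3 only, 83.2% with forebrain H3K27me3 only and 27.1% without forebrain H3K4me3. The part that open or easily recovered chromatin has in these control peaks was not tested.

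**Figure D4:**
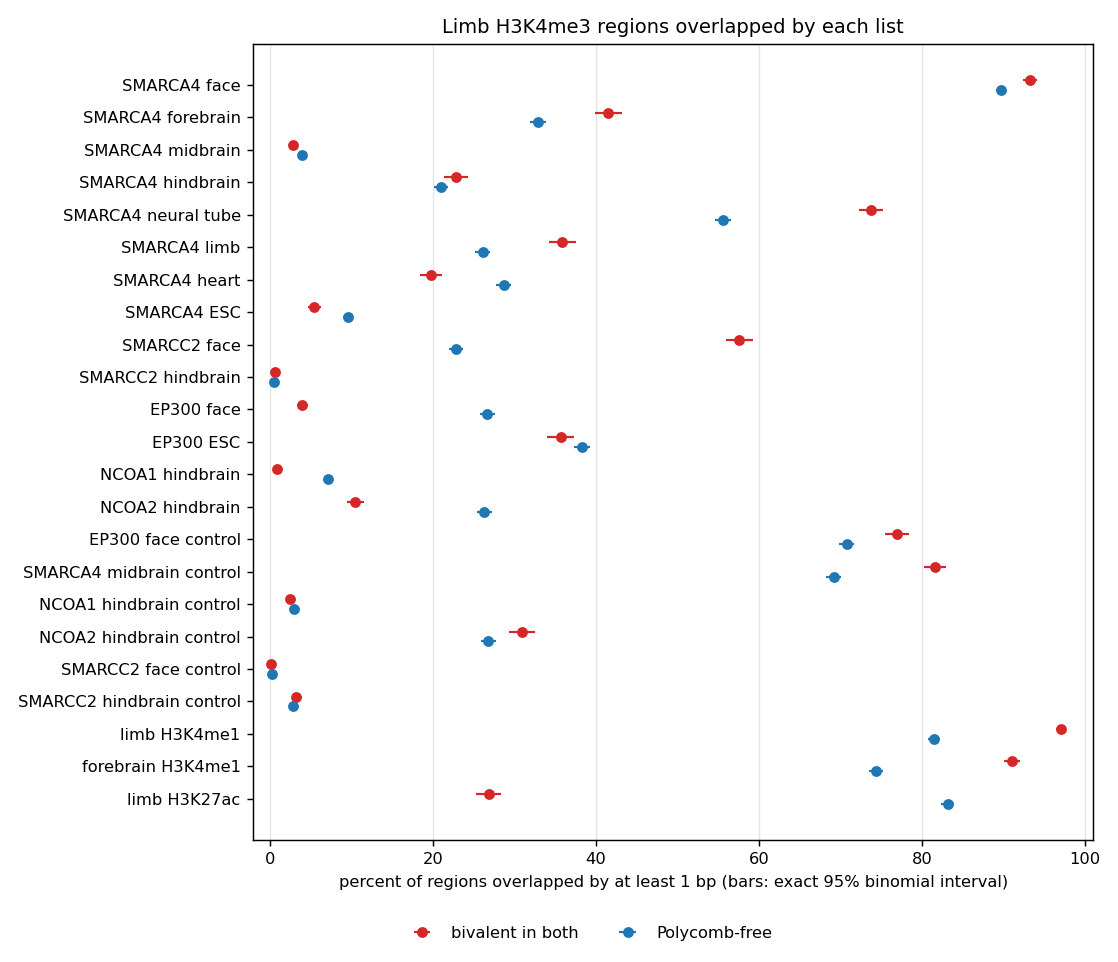
Share of bivalent and of Polycomb-free regions overlapped by each FLAG, control and histone list (percent, with exact 95% binomial interval). SMARCC2 face stands at 57.6% against 22.8%, EP300 face at 4.01% against 26.7% and limb H3K27ac at 26.9% against 83.1%.

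Counted over lists, a bivalent region lay in a median of 4 of the 14 FLAG lists (mean 4.05), as did a Polycomb-free region (median 4, mean 3.89). The spread was narrower at bivalent regions. In no list were 81 of them (2.46%) against 5.16%, and in 8 or more lists were 124 (3.77%) against 9.27%. Regions with limb H3K27me3 only, with forebrain H3K27me3 only and without forebrain H3K4me3 were at 4.96%, 3.01% and 28.7% in no list. In 8 or more lists they were at 4.10%, 13.5% and 0.0949%. Ctbp2, a corepressor gene, Mpped2 and Sptbn1, a spectrin gene, lay in 11 lists each. Another 10 regions lay in 10 lists, and the widest of these were at Bahcc1, Zfp423, Foxo3, Samd4, Trio, Tmtc1 and a region far from any placed gene start whose nearest name is AK172139. H3K27me3 cover in limb and forebrain was 19.7% and 2.78% at Ctbp2 and 8.95% and 10.8% at Trio. Tmtc1 was wholly covered in both tissues and was met by all 8 SMARCA4 lists. SMARCA4 of limb and of forebrain both met 20.4% of bivalent regions, limb alone 15.5%, forebrain alone 21.2% and neither 42.9%. At Polycomb-free regions these shares were 14.6%, 11.5%, 18.3% and 55.5%. Of all limb H3K4me3 regions, SMARCA4 of limb met 23.8% and SMARCA4 of forebrain 30.8%.

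The 884 bivalent regions with limb H3K27ac differed from the 2405 without it. They were wider (median 2735.5 against 1690 bp) and less covered by limb H3K27me3 (71.5% against 100%). SMARCA4 of limb met 55.9% of them and 28.6% of the rest, 27.3 points apart (23.5 to 31.0). For SMARCA4 of heart the shares were 33.3% and 14.8%, for EP300 of face 12.1% and 1.04%, and for NCOA2 22.4% and 6.11%. SMARCC2 of face changed least among these, at 62.8% and 55.7% (7.07 points, 3.28 to 10.8). In the middle tercile of the limb H3K4me3 ranking this last difference was -3.85 points (-8.76 to 0.982). Controls moved along, with 85.9% and 73.7% for the EP300 face control and 38.6% and 28.2% for the NCOA2 control, and their part was not tested.

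**Figure D5:**
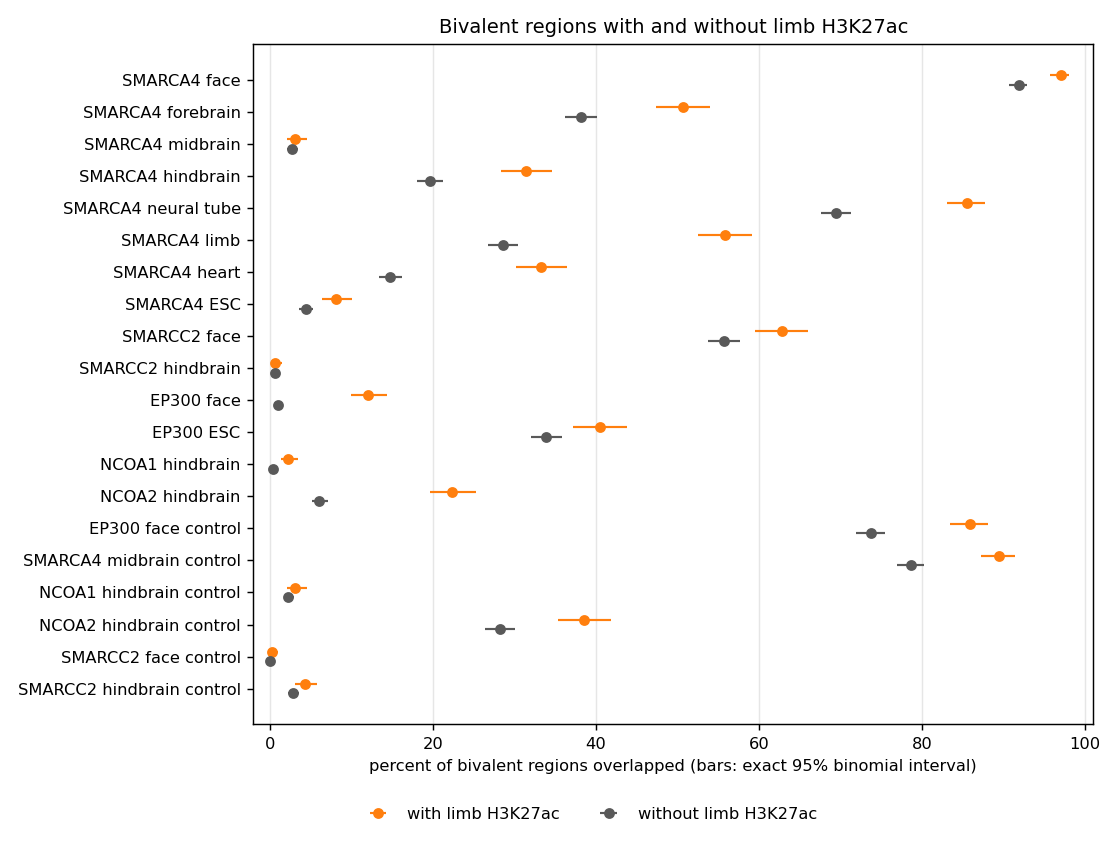
Share of bivalent regions with (884) and without (2405) limb H3K27ac overlapped by each FLAG and control list (percent, with exact 95% binomial interval). SMARCA4 limb separates most, at 55.9% and 28.6%, while SMARCC2 face lies at 62.8% and 55.7% and the 2 largest control lists separate as well.

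Inside the set, these shares differed by width and by Polycomb cover. From regions under 1 kb (191) through 1 to 2 kb (1637) and 2 to 4 kb (1195) to 4 kb or more (266), limb H3K27ac was found at 1.57%, 12.2%, 38.9% and 81.6%, and SMARCA4 of limb at 6.28%, 30.1%, 45.0% and 52.3%. EP300 of face met 1.57% of the narrowest and 22.2% of the widest class. SMARCC2 of face met 33.0%, 56.2%, 62.1% and 63.9%, and at Polycomb-free regions 18.5%, 20.1%, 23.0% and 45.9%, so its share was higher at bivalent regions in every width class. SMARCA4 of limb was lower at bivalent regions of 4 kb or more than at Polycomb-free ones (59.4%). Controls were graded alike: the SMARCA4 midbrain control met 47.6%, 79.4%, 87.6% and 92.5% of bivalent regions, and the EP300 face control 41.9% of the narrowest and 89.8% of the widest. The part that width itself plays in these gradients under a rule of 1 bp was not tested. Differences between bivalent and Polycomb-free regions were recomputed over the middle 1 kb of each region. They were 9.57 points for SMARCA4 limb, 33.6 for SMARCC2 face, -57.5 for limb H3K27ac and 10.4 for the SMARCA4 midbrain control. Of 21 values recomputed in this way, 13 stayed close, 8 moved and 0 changed sign. By limb H3K27me3 cover, limb H3K27ac was found at 89.6% of the 67 regions with under 25% covered and at 15.9% of the 2645 regions with 75% or more covered. The 107 regions with more cover in forebrain than in limb had limb H3K27ac at 84.1% (75.8 to 90.5) and SMARCA4 of limb at 55.1%. The 2755 with more cover in limb had 27.4% and 37.2%, while SMARCA4 of forebrain was at 43.0% and 43.2%. SMARCA4 of limb met 25.7% of the 70 regions at transcription factor starts and 41.2% of the 2377 at other gene starts. For SMARCC2 of face these shares were 34.3% and 63.5%. Regions with a start owe that start to FLAG or control peaks, so these shares describe a set chosen partly by binding.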

How the data were processed

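Each list holds the called regions of 1 library. The submitters' processing notes name BWA and the mm9 build, without a version, and the peak caller is not given in the sources used here. Per the file headers, 16 of the deposited lists give the count of tags in each peak, its height (signal), a score from p and a conservation score, a fold enrichment (ratio) and, in part, a false discovery rate in percent, all of them the authors' values. The other 14 deposited lists hold positions and a rank, whose basis is not stated. Library depth is unknown, and libraries were called separately. Controls of 4 SMARCA4 samples (limb, heart, neural tube, forebrain) were not analysed here, and what "input control" means is not stated.

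Regions were joined by overlap of at least 1 bp, and shares were given with their intervals (Python 3.11.15, scipy 1.17.1, pandas 2.3.3, numpy 2.4.6). The overlap code was checked on simulated regions. Gene starts came from summit and distance where at least 2 peaks agreed, which placed 18934 of 23432 names, and 15980 matched a RefSeq symbol. Holding out each table in turn, its peaks received the gene the authors named in 81.2% to 96.9% of cases. Members, the 33 gene lists and the rule for named genes were chosen with earlier results of these data known. That rule took the 10 widest regions with a start, the 10 in most FLAG lists, the 6 first in the limb H3K27me3 ranking, up to 4 per gene list, the identity, Polycomb, SWI/SNF and cell type lists, and regions at the edge of the overlap rule. Some items that it names are not reported here. Results were recomputed under 14 alternatives, 5 of them chosen after seeing the data.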

Additional observations from a re-analysis of the deposited data

Results flagged for a closer look

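SMARCA4 lists did not all differ in 1 direction between bivalent and Polycomb-free regions. The share at bivalent regions was higher by 3.53 points in face, 8.62 in forebrain, 1.80 in hindbrain, 18.2 in neural tube and 9.77 in limb. It differed by -1.07 points in midbrain, -8.95 in heart and -4.20 in ESC. In face, SMARCC2 differed by 34.8 points and EP300 by -22.7. The difference between lists was not tested, since each is 1 library with its own length and peak width.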

How the results depend on the processing

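Of 247 recomputed values, 129 stayed close to the reported value, 102 moved and 16 changed sign. Merging limb regions within 1 kb joined 1 pair, since the smallest gap between them is 1000 bp, and so tested nothing; it is not counted here. With at least 50% of the width under H3K27me3 in both tissues, 728 regions remained with a median width of 1666.5 bp. Differences there were 0.0531 points for SMARCA4 forebrain, -0.583 for SMARCA4 limb, -1.40 for SMARCA4 face and -5.38 for SMARCA4 hindbrain. They were 6.64 for SMARCA4 neural tube and 32.7 for SMARCC2 face. The EP300 face control was at -2.48, the NCOA2 control at -3.05 and limb H3K27ac at -65.3. In that set 3 FLAG lists had the higher share at bivalent regions (7 in the full set), and transcription factor starts made up 3.16%. With the upper 50% of each H3K27me3 list by rank, limb H3K27ac differed by -60.8 points and transcription factor starts were 2.72%. Taking forebrain regions as the unit gave a median width of 2005.5 bp. Among regions of 2 to 4 kb, SMARCA4 forebrain differed by 10.8 points and SMARCA4 midbrain by 0.126. With FLAG lists at the length of the shortest (1414 peaks), SMARCA4 forebrain differed by -1.79 points, limb by 1.90 and neural tube by 0.566. Without peaks over a control or input, the differences were -4.68 (SMARCA4 face), -1.52 (forebrain), -1.50 (hindbrain), -0.956 (neural tube), -0.672 (limb) and 0.193 (EP300 ESC), and 3 FLAG lists were higher; far fewer peaks are left by construction. With at least 50% of the FLAG peak inside the region, SMARCA4 forebrain differed by 4.17 points. Of alternatives chosen after seeing the data, regions with a gene start gave 0.0905 points for SMARCA4 midbrain and -61.3 for limb H3K27ac. The middle tercile of the limb H3K4me3 ranking gave 13.995 for SMARCA4 forebrain, 16.2 for SMARCA4 limb, 7.65 for EP300 ESC and -3.85 for SMARCC2 face with minus without limb H3K27ac. Except where construction shows it, the cause was not tested. No paired analysis was possible because each condition has 1 library, and no replicate could be left out. Peak lists carry no depth, so a region absent from a list may be undetected rather than unbound.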

Other observations

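The regions that stood first in the authors' limb H3K27me3 ranking and were bivalent included Comp, a gene of cartilage matrix, and Pax2, a regulator of kidney, eye and midbrain. Comp had 2914 bp of H3K4me3 in limb and 1494 bp in forebrain, and Pax2 had 2077 and 2279 bp. Both were wholly under limb H3K27me3, while forebrain H3K27me3 covered 23.2% and 15.6%. SMARCA4 of limb met the region of Comp, and the only FLAG lists at Pax2 were SMARCA4 of forebrain and neural tube.

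Some bivalent regions lay together in 1 H3K27me3 region. In limb, 128 H3K27me3 regions held 2 or more of them, 276 bivalent regions in all, and the fullest, at chr10:50607959-50633465 on mm9, held 4 within 25507 bp.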
